A study of Mus musculus with 30 samples.

Results

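The homeostatic microglia genes are 33 genes that resting microglia of the adult brain express, out of 36717 genes and transcripts measured on each array. They were chosen by name: each array probe was matched to a gene symbol through its accession, and for each of the 33 symbols the probe with the highest mean signal was kept. All 33 had a probe. RNA of 15 perfused mice was read separately in the hippocampus and in the remaining brain (brain without hippocampus), on 1 single-colour Agilent array for each mouse and region, 30 arrays in all. The labels give an age of 15 to 20 months for all animals.

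Per region there were 3 female WT mice (C57BL/6j), 2 female JHT mice, 2 female and 3 male 3xTgAD mice, and 2 female and 3 male 3xTgAD-BKO mice. JHT mice (B6.129P2-Igh-Jtm1Cgn/J) lack the JH segments of the immunoglobulin heavy chain locus and so have no functional circulating B cells, although all their other cells carry the same deletion. 3xTgAD mice carry mutant human APP and tau transgenes among their alleles, on a stock of mixed strain origin, whereas the WT mice were purchased C57BL/6j. 3xTgAD-BKO mice, labelled as a cross of JHT and 3xTgAD, carry the alleles of both lines. The alleles are germline, so that transgenes and B cell loss are present from birth and the JH deletion itself was not checked on these arrays. WT and JHT were measured in females only, and allele and strain of origin cannot be told apart between 3xTgAD and WT. Between 3xTgAD-BKO and 3xTgAD, loss of B cells cannot be told apart from other alleles brought in by the cross. Mice are named below by the number in the labels, and the mouse is the replicate. An equal number in both regions is taken to mean the same mouse.

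Microglia are the resident macrophages of the brain. In the healthy adult they survey the tissue with motile processes, and this state depends on CSF1 receptor signalling, on TGFβ and on the transcription factors PU.1, IRF8 and SALL1. Purinergic receptors such as P2RY12 read nucleotides released by damaged cells, CX3CR1 reads fractalkine from neurons, and MERTK takes up dying cells tagged by GAS6. Near amyloid plaques many of these genes are known to fall while genes of the disease-associated state, such as Cst7, rise. The arrays read whole tissue, so that fewer microglia and less RNA per microglia cannot be told apart in any value given here.

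The 75th percentile of probe intensity was 394 to 698 for hippocampal and 709 to 1384 for brain arrays. Thy1, whose promoter drives the APP and tau transgenes and whose probe separates transgenic from other mice, read 17.95 to 18.28 on the log2 scale in the transgenic hippocampi against 16.85 to 17.06 in the others, with 17.33 to 17.68 against 16.84 to 17.11 in the brain. Every value below is a log2 signal after quantile normalization over the 30 arrays, and signals of different genes come from different probes and are not compared. Of the 33 genes, 32 were well above background on at least 29 of the 30 arrays. The exception was Spi1, which encodes PU.1, with 5 arrays above background, so that it is left out of the descriptions of levels, save on 1 array where it read far above the others. The defining microglial genes Tmem119, P2ry12, Csf1r and Cx3cr1 could be read in every group. Arrays lay on 4 slides: in the hippocampus all 3xTgAD arrays shared a slide with the 3xTgAD-BKO females and male 0, while the WT and JHT arrays lay on another slide with males 8 and 9. In the brain the 3xTgAD arrays shared a slide with the 3xTgAD-BKO females and male 8, male 9 lay with WT and JHT, and male 0 lay on the second hippocampal slide.

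Promoter sequence was taken from RefSeq (GRCm38.p6) for the genes whose values carry the comparisons below, to show the stretch from 250 bases before to 50 bases after the annotated start. The table held a promoter for 25 of the 33 genes. The purine-rich core GAGGAA bound by PU.1, searched on both strands with overlaps counted once, is written in capitals.
Fcrls (chr3:87263475-87263774, minus strand): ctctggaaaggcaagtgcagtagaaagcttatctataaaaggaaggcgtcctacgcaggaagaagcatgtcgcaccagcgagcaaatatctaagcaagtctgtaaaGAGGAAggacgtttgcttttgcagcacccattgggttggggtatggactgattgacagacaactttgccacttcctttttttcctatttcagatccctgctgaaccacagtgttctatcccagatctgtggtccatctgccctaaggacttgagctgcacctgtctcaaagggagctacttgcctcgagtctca
P2ry13 (chr3:59210833-59211132, minus strand): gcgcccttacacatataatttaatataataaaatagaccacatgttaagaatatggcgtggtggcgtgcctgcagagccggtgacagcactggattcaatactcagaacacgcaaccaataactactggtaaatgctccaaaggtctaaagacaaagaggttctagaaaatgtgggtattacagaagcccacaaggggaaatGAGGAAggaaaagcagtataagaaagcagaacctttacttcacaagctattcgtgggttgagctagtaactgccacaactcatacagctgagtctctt
Slc2a5 (chr4:150119094-150119393, plus strand): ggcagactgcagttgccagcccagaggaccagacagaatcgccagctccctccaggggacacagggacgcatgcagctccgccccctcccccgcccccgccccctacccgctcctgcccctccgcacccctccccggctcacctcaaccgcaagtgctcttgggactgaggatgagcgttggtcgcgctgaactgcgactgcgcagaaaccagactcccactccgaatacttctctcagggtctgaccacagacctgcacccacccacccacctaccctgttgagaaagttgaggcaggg
Fcrls is shown because it rose in 3xTgAD-BKO brains, P2ry13 because its 3xTgAD-BKO brains read within a narrow range, and Slc2a5 because its signal took 2 separate levels among the arrays. The core lies 144 bases before the start of Fcrls and 48 bases before that of P2ry13, and these letters are not in the window of Slc2a5. Of the 32 annotated promoters of the 25 genes, 13 (40.6%) hold the core, against 28.3% of all 32851 promoters of that length. A match is a description of the letters and not a measured binding site.

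The main comparison set 3xTgAD-BKO against 3xTgAD mice, to ask how the homeostatic genes of microglia read in the AD model without B cells. In the brain without hippocampus, Fcrls and Bin2 rose in 3xTgAD-BKO mice in the fit over both sexes, P2ry6 read higher in every 3xTgAD-BKO mouse without passing the test, and no gene of the group fell. These were 2 of 33 genes called higher, where 1.53% of all genes were called higher (limma, adjusted p under 0.05 over all 36717), and 0 of 33 called lower, where 1.11% were. At an unadjusted p under 0.05, 7 genes of the group were higher and 0 lower, where 14.5% of all genes passed. The median change of the 33 genes was 0.14 on the log2 scale, beside 0.00 over all genes. With the slide as a block 5 of the 33 passed (Fcrls, Bin2, P2ry6, Aif1 and Fcgr3), where 6.05% of all genes did.

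Fcrls (chr3:87250736-87263765, GRCm38.p6), an Fc receptor-like scavenger receptor that marks microglia, had the lowest adjusted p of the group. In the brain its log2 signal was 8.79 and 9.02 in the 3xTgAD females and 9.01, 8.72 and 8.98 in the males. In 3xTgAD-BKO mice it was 9.98 and 9.72 in the females 6 and 7, and 10.32, 10.57 and 9.44 in the males 0, 8 and 9. Every 3xTgAD-BKO array lay above every 3xTgAD array. The change with both sexes was 1.07 ± 0.18 (log2, SE), 2.11-fold, with an adjusted p of 0.0126, and it was 0.94 ± 0.29 in females (adjusted p = 0.178) and 1.21 ± 0.23 in males (adjusted p = 0.0425). Leaving out each mouse in turn kept the change with both sexes past the threshold, with adjusted p between 0.000129 and 0.0471. Within the slide that holds all the 3xTgAD arrays it was 1.30 (adjusted p = 0.00811), and without males 0 and 8 it was 0.74 (adjusted p = 0.00623). With only the 4 groups compared in the fit, the adjusted p was 0.0679. The WT brains read 9.83, 9.70 and 9.81 and the JHT brains 9.33 and 9.33, so that 3xTgAD lay below both of these strains.

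Bin2 (chr15:100641082-100669503, GRCm38.p6) encodes a membrane-bending protein of white blood cells and microglia. Its brain signal was 6.45 and 6.72 in 3xTgAD females and 6.70, 6.45 and 6.39 in males. It was 7.20 and 7.36 in 3xTgAD-BKO females and 8.01, 8.45 and 7.10 in males. The 2 genotypes did not overlap, and males 0 and 8 were the highest of all 15 brains. The change was 1.02 ± 0.23 (adjusted p = 0.0474) with both sexes. The call was lost when any single mouse other than male 9 was left out (adjusted p 0.0554 to 0.149), with 75th percentile scaling (adjusted p = 0.0615) and without males 0 and 8, where the change was 0.64 (adjusted p = 0.102).

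**Figure D1:**
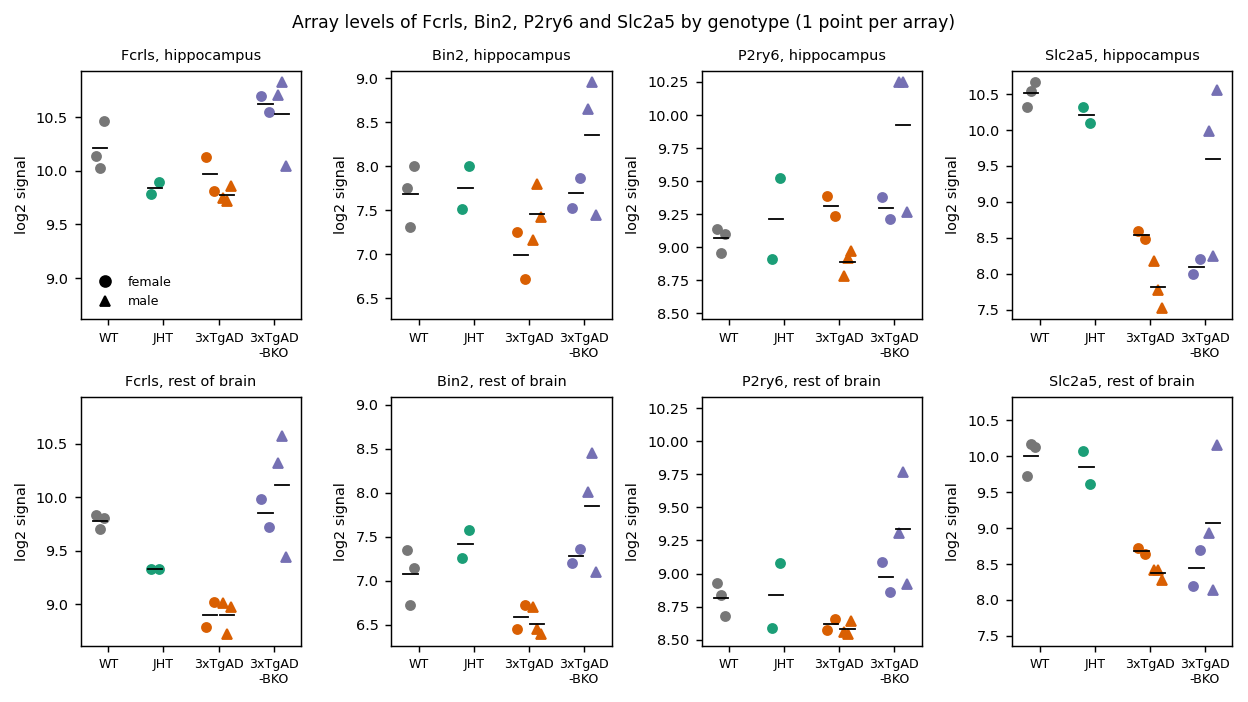
Log2 signal (y axis) of Fcrls, Bin2, P2ry6 and Slc2a5 in each array by genotype (x axis), with the hippocampus above and the rest of the brain below; circles are females, triangles males and lines the means of each sex. In the brain the 3xTgAD-BKO points of Fcrls, Bin2 and P2ry6 lie above all 3xTgAD points, while Slc2a5 takes a high and a low level.

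Among the purinergic receptors, P2ry6, the UDP receptor that drives microglial phagocytosis, also separated the genotypes in the brain. It read 8.57, 8.66, 8.56, 8.54 and 8.64 in the 5 3xTgAD mice and 9.09, 8.86, 9.31, 9.77 and 8.92 in the 3xTgAD-BKO mice 6, 7, 0, 8 and 9. The change was 0.55 ± 0.15 (adjusted p = 0.103), so that P2ry6 did not pass. It is given, with Fcrls in each comparison, P2ry13 here and Fcgr3 and Ptprc further on, after its values were seen. With Fcrls and Bin2 it made 3 of 33 genes with every 3xTgAD-BKO array above every 3xTgAD array, where 2.42% of all genes did so, and 0 of 33 lay entirely below, where 2.07% did.

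P2ry13, a receptor for ADP next to P2ry12 on chromosome 3, read 8.17 to 8.92 in 3xTgAD brains and 8.85 to 8.98 in 3xTgAD-BKO brains. The 3xTgAD-BKO mice were close together and 1 3xTgAD male lay within their range (change 0.47 ± 0.15, adjusted p = 0.16). P2ry12, the ADP receptor that steers microglial processes, read 10.76 to 10.92 in 3xTgAD and 10.18 to 11.02 in 3xTgAD-BKO brains, with males 0 and 8 the lowest of the 15. Gpr34, a receptor for lysophosphatidylserine, showed the same 2 males lowest, at 9.12 and 8.38 against 9.37 to 10.08 in 3xTgAD brains. The male brains that read highest for Fcrls, Bin2 and P2ry6 thus read lowest for P2ry12 and Gpr34.

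In the hippocampus 0 of 33 genes passed with both sexes together, where 1.02% of all genes did (374 genes), while 4 passed with the slide as a block (11.3% of all genes) and 6 within 1 slide (9.15%), Fcrls and Laptm5 in both. At an unadjusted p under 0.05, 4 were higher and 0 lower, where 10.5% of all genes passed. Fcrls came nearest. It read 10.13, 9.81, 9.75, 9.72 and 9.86 in the 3xTgAD mice 1 to 5 and 10.70, 10.55, 10.71, 10.83 and 10.05 in the 3xTgAD-BKO mice 6, 7, 0, 8 and 9. Only 3xTgAD-BKO male 9 lay within the 3xTgAD range, and the change was 0.71 ± 0.15 (adjusted p = 0.0702). The other changes of this size were 0.80 ± 0.29 for Bin2 (adjusted p = 0.322) and 0.67 ± 0.36 for Slc2a5 (adjusted p = 0.603). Leaving out 1 mouse moved Bin2 from 0.65 to 1.03 and Slc2a5 from 0.42 to 1. No gene of the group separated the 2 genotypes in the hippocampus, where 1.46% of all genes had every 3xTgAD-BKO array above and 0.839% every one below.

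The sexes were then compared, since the design holds both in these genotypes. In hippocampal females 0 of 33 genes passed (0.37% of all genes did), 1 was higher and 2 lower at an unadjusted p under 0.05 (16.4% of all genes), the median change was -0.02, and the widest changes were 0.84 ± 0.43 for Ltc4s, -0.77 ± 0.27 for Olfml3 and 0.71 ± 0.45 for Bin2 (adjusted p = 0.361, 0.209 and 0.476). Leaving out 1 mouse moved these from 0.26 (without 3xTgAD-BKO female 7) to 1.42 (without female 6) for Ltc4s, from -1.06 (without female 6) to -0.48 (without female 7) for Olfml3 and from 0.44 (without 3xTgAD female 2) to 0.99 (without 3xTgAD female 1) for Bin2, and the hippocampal array of female 7 carried a choroid plexus list mean of 13.52. Olfml3, a secreted olfactomedin-like protein, was read by a second probe that moved by 1.25 the other way, so its direction is not settled. In the brain with both sexes the used probe gave -0.26 and the second probe 0.9. In hippocampal males 0 of 33 passed as well (0.847% of all genes did), but 13 were higher and 2 lower at an unadjusted p under 0.05 (18.2% of all genes), with a median of 0.41 beside 0.01 over all genes. That median was -0.01 without males 0 and 8, 0.22 without male 0 alone, and 0.80 with the slide as a block. With that block 14 of the 33 genes passed, where 15.4% of all genes did, and 12 passed within the slide that holds all 3xTgAD arrays (12.2% of all genes), where male 0 is the only 3xTgAD-BKO male. The widest male changes were 1.77 ± 0.46 for Slc2a5, 1.04 ± 0.25 for P2ry6 and 0.89 ± 0.37 for Bin2 (adjusted p = 0.102, 0.0806 and 0.236). Itgam, the CD11b chain, was 1 of the 2 lower genes at -0.32, while a second, dimmer probe of it gave 0.80. The lowest adjusted p was that of Sparc, 0.0552, for a change of 0.41 ± 0.08.

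In the brain, females gave 0 of 33 called (1.12% of all genes were), with 3 higher and 0 lower at an unadjusted p under 0.05 (12.9% of all genes). The widest were 0.94 ± 0.29 for Fcrls, 0.70 ± 0.36 for Bin2 and 0.55 ± 0.23 for P2ry13 (adjusted p = 0.178, 0.444 and 0.362). Males gave 1 of 33, Fcrls, where 0.961% of all genes were called, with 10 higher and 0 lower at an unadjusted p under 0.05 (11.5% of all genes). The fit with a slide block called 1 gene in females, Fcrls (2.76% of all genes), and 6 in males (2.89%), where male 8 is the only 3xTgAD-BKO male on the slide of the 3xTgAD arrays. The Fcrls call in males alone was lost without male 0, 8, 3, 4 or 5 (adjusted p 0.0709 to 0.161). The difference between the female and the male change was itself tested. It passed for 0 of 33 genes in the hippocampus (0.0245% of all genes) and 0 of 33 in the brain (0.101%), where 1 gene, Sall1, was higher and 0 lower at an unadjusted p under 0.05 (8.75% of all genes). Blocking on slide, 8 passed in the hippocampus (13.4% of all genes) and 0 in the brain (0.953%). In the hippocampus the female change was the higher for 1 gene and the lower for 10 at an unadjusted p under 0.05, which 21.2% of all genes reached, and the largest hippocampal differences were -2.21 ± 0.73 for Slc2a5, -1.44 ± 0.40 for Entpd1 and -1.36 ± 0.65 for Hpgds (adjusted p = 0.12, 0.0877 and 0.264). Entpd1 encodes the ectonucleotidase CD39, and Hpgds a prostaglandin D synthase. Leaving out 1 mouse moved Slc2a5 from -2.88 to -1.72, Entpd1 from -1.75 to -1.16 and Hpgds from -2.02 to -0.69.

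**Figure D2:**
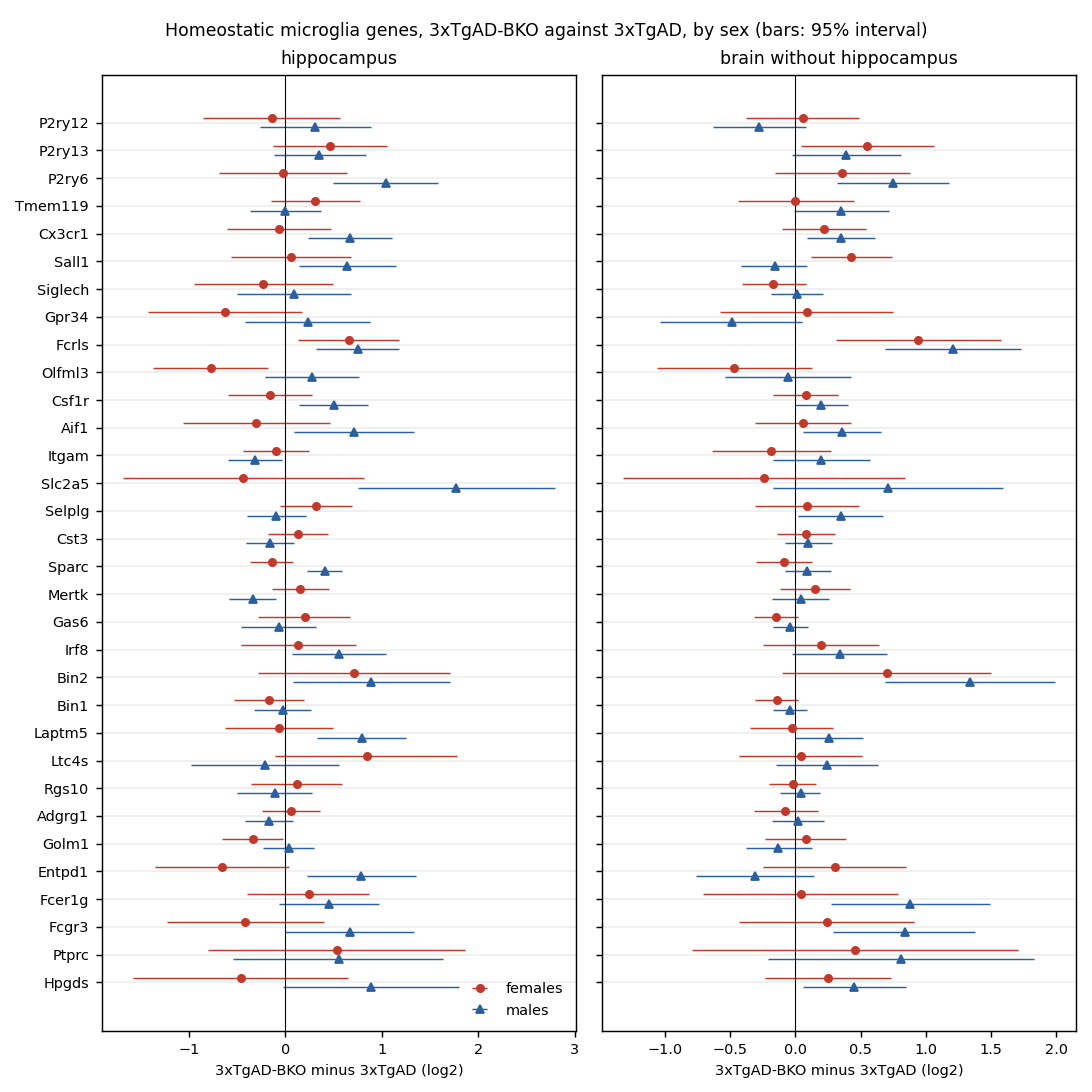
Change between 3xTgAD-BKO and 3xTgAD mice (x axis, log2) for the 32 readable genes (y axis), in females (circles) and males (triangles), with the hippocampus on the left and the brain without hippocampus on the right; bars are 95% intervals. Fcrls lies above 0 in both sexes and regions, while most hippocampal changes of males lie above 0 and those of females on both sides.

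In the hippocampus 2 of the 3 3xTgAD-BKO males stood apart. Male 0 had the highest of 15 hippocampal signals for 16 of the 32 readable genes, and the median over the genes of its difference from the median array was 0.55. That array also had 432 outlier spots, against 102 to 160 on the other 29 arrays, and the highest 75th percentile of the hippocampal arrays (698, with the next at 596), and their part in the values was not tested. Male 8 was highest for 5 further genes, and male 9 for 0. In the brain male 0 and male 8 were each highest for 8 genes. Without males 0 and 8 the male hippocampal change of Bin2 was -0.01, and the 2 calls then gained, Slc2a5 and Spi1, came from male 9 alone, where Spi1 read 7.65, well above background, and Slc2a5 read 10.56. A fit with 1 male takes its spread from the other groups.

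Marker genes of other cells moved with these animals. Of a list of 10 neutrophil genes, the 7 above background on at least 15 of the 30 arrays averaged 10.38 and 9.77 in hippocampal males 0 and 8 and 7.43 in male 9, against 6.87 to 7.35 in 3xTgAD males. In the brain it averaged 11.62, 10.47 and 8.33 in males 0, 8 and 9, against 6.85 to 7.78. None of the 10 neutrophil genes passed the threshold in males, while 4 were higher and 1 lower in the hippocampus (18.2% of all genes), and 8 higher and 0 lower in the brain (11.5%), at an unadjusted p under 0.05. A monocyte list stood at 9.41 and 9.02 in hippocampal males 0 and 8 and at 7.23 in male 9, against 7.09 to 7.77 in 3xTgAD males. Of its 7 measured genes, Fn1 was called higher in hippocampal males (1.23 ± 0.23, adjusted p = 0.0459), where 0.847% of all genes were called. Ccr2, the chemokine receptor of inflammatory monocytes, was called higher in the brain with both sexes (1.66 ± 0.31, adjusted p = 0.0198), where 1.53% of all genes were. The same comparison called Fcrls and Bin2, and the Ccr2 probe was above background on only 16 of the 30 arrays. Ccr2 was the 1 gene of the list that was higher there at an unadjusted p under 0.05 (14.5% of all genes), with 0 lower and a list median of 0.26.

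Among the genes of the group that blood leukocytes also express, Fcgr3, Ptprc and Fcer1g read high in these males. Fcgr3, an activating Fc gamma receptor of macrophages and neutrophils, read 9.40 and 9.43 in hippocampal males 0 and 8 and 8.27 in male 9, against 8.06 to 8.90 in the 5 3xTgAD mice. Its brain signal was 9.00, 9.78 and 8.59 in males 0, 8 and 9, against at most 8.30 in 3xTgAD mice. Ptprc, which encodes the leukocyte antigen CD45, read 7.59 and 7.61 in brain males 0 and 8 and 5.89 in male 9, against 5.98 to 6.47 in 3xTgAD mice. Fcer1g, the shared gamma chain of Fc receptors, read 12.66 and 12.48 in brain males 0 and 8 against 11.57 in male 9. The neutrophil list averaged 8.8 to 11.12 in JHT hippocampi, where Fcgr3 read 7.96 to 8.39, Ptprc 6.22 to 7.34 and Fcer1g 11.74 to 12.11. In JHT brains it averaged 8.7 to 11.33, with Fcgr3 at 8.22 to 8.74, Ptprc at 6.72 to 8.12 and Fcer1g at 11.34 to 11.79. The probes of Itgam, which blood leukocytes also express, disagreed. The used probe read 15.85 and 15.89 in hippocampal males 0 and 8, below the 16.20 to 16.41 of the 3xTgAD mice, and 15.88 and 15.26 in the brain against 15.29 to 15.60, while a dimmer probe was higher by 0.80 in hippocampal and 0.99 in brain males. The part of blood cells in these values was not tested.

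Fcrls and the neutrophil list parted in other mice. The neutrophil list averaged 9.85 in the brain of 3xTgAD female 2, where Fcrls read 9.02. It averaged 7.82 in 3xTgAD-BKO female 6, where Fcrls read 9.98, and 11.33 in JHT female 14, where Fcrls read 9.33. Endothelial Cldn5, the tight junction gene, rose in the brain by 1.05 ± 0.18 (adjusted p = 0.0125) and in the hippocampus by 1.16 ± 0.16 (adjusted p = 0.00812) in 3xTgAD-BKO mice of both sexes. In the hippocampus 2 of 10 border macrophage genes, Cbr2 and F13a1, rose by 1.38 ± 0.25 and 1.38 ± 0.27 (adjusted p = 0.0307 and 0.0454). There 8 of the 10 were higher and 0 lower at an unadjusted p under 0.05 (10.5% of all genes), with a list median of 0.96. In the brain 0 of the 10 were called and 2 were higher at an unadjusted p under 0.05 (14.5% of all genes), with a median of 0.17. Cd163, a defining border macrophage gene, was above background on no array. Of the 10 endothelial genes, 1 rose in the hippocampus (Cldn5) and 2 in the brain (Cldn5 and Emcn), with 4 and 6 higher at an unadjusted p under 0.05 (10.5% and 14.5% of all genes, with 1.02% called in the hippocampus and 1.53% called higher in the brain) and medians of 0.40 and 0.42. The endothelial list averaged 10.07 to 10.36 in 3xTgAD brains and 10.40 to 10.85 in 3xTgAD-BKO brains, which do not overlap. Of the lists of 10 neuron, astrocyte and oligodendrocyte genes 0 passed in either region with both sexes. In hippocampal males alone the neuron list had 2 higher and 4 lower at an unadjusted p under 0.05 (18.2% of all genes) with a median of -0.17, and the oligodendrocyte list 0 higher and 1 lower with a median of -0.42, its mean being 11.80 in male 8 and 12.42 to 13.25 on the other 14 hippocampal arrays. The 10 lymphocyte genes made 0 calls as well, but only 3 of them were above background on at least 15 of the 30 arrays, so that most could not be read. The part of these cells in the Fcrls change was not tested.

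**Figure D3:**
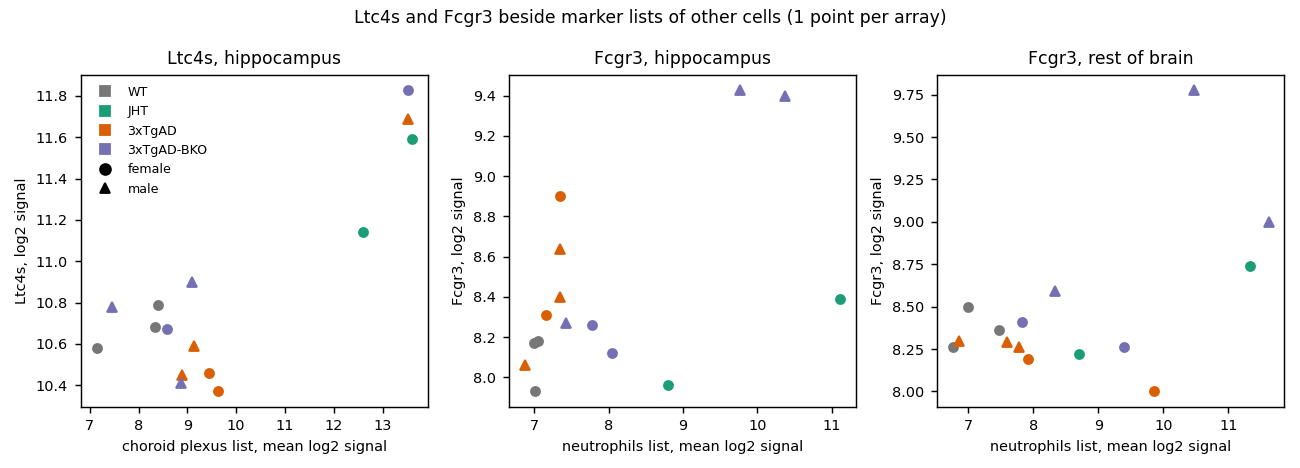
Log2 signal of Ltc4s and Fcgr3 (y axes) against the mean log2 signal of the choroid plexus or neutrophil marker list (x axes), 1 point per array, coloured by genotype with circles for females and triangles for males. The 4 hippocampi with the highest choroid plexus list hold the 4 highest Ltc4s signals, from 11.14 to 11.83, and 3xTgAD-BKO males 0 and 8 stand apart for Fcgr3 in both regions.

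Female 3xTgAD and WT mice were compared to ask how the group reads in the AD model itself. None of the 33 genes passed in the hippocampus (0.746% of all genes did) or in the brain (1.15%), with 1 higher and 2 lower (12% of all genes), and 0 higher and 4 lower (11%), at an unadjusted p under 0.05. Once slide was a block, 1 passed in the hippocampus (Sall1), where 8.88% of all genes did, and 3 in the brain (Fcrls, Bin2 and Fcgr3), where 3.08% did. All these 3xTgAD arrays lay on other slides than the WT arrays, so that slide and genotype are joined only through the 3xTgAD-BKO males. A dimmer probe of Itgam gave -1.28 in the hippocampus and -1.02 in the brain, where the used probe gave 0.17 and -0.12. Among the used probes Slc2a5, which encodes the fructose transporter GLUT5 of microglia, was the widest in both regions. Its hippocampal signal was 10.32, 10.55 and 10.67 in WT, 10.32 and 10.10 in JHT, and 8.59 and 8.48 in 3xTgAD females and 8.17, 7.77 and 7.52 in 3xTgAD males. WT and JHT lay together, at least 1 unit above every 3xTgAD mouse. The hippocampal change in females was -1.98 ± 0.51 (adjusted p = 0.132). The change in the brain was -1.32 ± 0.44 (adjusted p = 0.262), and it turned to 0.69 (adjusted p = 0.444) once slide entered the fit as a block.

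The 3xTgAD-BKO mice split between these 2 levels of Slc2a5. Hippocampi of females 6 and 7 and male 8 read 7.99, 8.20 and 8.24, as low as 3xTgAD, while males 0 and 9 read 9.98 and 10.56. In the brain male 9 again read high, at 10.16, and females 6 and 7 and males 0 and 8 read 8.19, 8.69, 8.93 and 8.14. The WT and JHT brains read 9.61 to 10.17 and the 3xTgAD brains 8.28 to 8.73. The 3xTgAD-BKO males thus held both levels in both regions, but male 0 held the high one in the hippocampus only.

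The brain values of Fcrls (-0.88 ± 0.26, adjusted p = 0.195) and P2ry13 (-0.51 ± 0.21, adjusted p = 0.401) came next. With the slide as a block the Fcrls value was -2 (adjusted p = 0.00186). Endothelial genes moved with this comparison: in the brain 0 of 10 were higher and 6 lower at an unadjusted p under 0.05 (11% of all genes), with a median of -0.51, and in the hippocampus 0 were higher and 3 lower (12%), with a median of -0.40, Cldn5 being called lower where 0.746% of all genes were called (-1.22 ± 0.23, adjusted p = 0.0463). Their part in the values of the group was not tested. In the hippocampus the values were -0.57 ± 0.24 for P2ry13 and -0.70 ± 0.41 for Bin2 (adjusted p = 0.381 and 0.582). Leaving out 1 mouse moved these from -0.82 to -0.32 and from -0.97 to -0.43, and the brain value of P2ry13 from -0.68 to -0.37. With 3xTgAD males added, who have no WT counterpart of their sex, 6 genes lay lower in every 3xTgAD brain than in every WT brain, which 6.22% of all genes did: Bin2, Cx3cr1, Fcrls, Hpgds, P2ry6 and Slc2a5. Csf1r, the receptor microglia need to survive, and Mertk lay higher, which 9.21% of all genes did. In the hippocampus Sall1, Slc2a5 and Sparc lay lower (5.81% of all genes) and Golm1 and Mertk higher (4.97%). The comparisons with WT and with 3xTgAD-BKO share the 3xTgAD arrays, so that a low 3xTgAD level enters both with opposite sign. Cx3cr1, the fractalkine receptor, read 12.68 to 12.75 in WT brains, 12.18 to 12.59 in 3xTgAD and 12.52 to 12.88 in 3xTgAD-BKO brains.

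JHT and WT females were set side by side for B cell loss without the transgenes. No gene of the group passed in the hippocampus (0.0926% of all genes did) or in the brain (0.161%), with 1 higher and 1 lower in the hippocampus (7.83% of all genes) and 0 in either direction in the brain (6.31%) at an unadjusted p under 0.05. In the brain the widest were 0.92 ± 0.52 for Ptprc, -0.45 ± 0.26 for Fcrls and 0.35 ± 0.33 for Bin2 (adjusted p = 0.907, 0.921 and 1). The 95% interval for Fcrls ran from -1.03 to 0.13, and from 0.66 to 1.48 for the change between 3xTgAD-BKO and 3xTgAD. The difference between these 2 changes was not tested. The high Ptprc value came from JHT female 14, at 8.12 in the brain, where the neutrophil list was 11.33.

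In the hippocampus the widest JHT values were 0.88 ± 0.55 for Ptprc, 0.68 ± 0.39 for Ltc4s and -0.67 ± 0.25 for Olfml3 (adjusted p = 0.767, 0.733 and 0.574). Leaving out 1 mouse moved Ptprc from 0.32 to 1.44, Ltc4s from 0.45 to 0.91 and Olfml3 from -0.81 to -0.53. The median change there was 3.21 for the neutrophil list and 2.01 for the monocyte list. Ltc4s encodes leukotriene C4 synthase. Its 4 highest hippocampal signals were 11.83 in 3xTgAD-BKO female 7, 11.69 in 3xTgAD male 4 and 11.59 and 11.14 in the JHT females, and the other 11 arrays read 10.37 to 10.90. The choroid plexus list of 8 genes averaged 13.52, 13.52, 13.61 and 12.59 on those 4 arrays and 7.14 to 9.62 on the others. Gas6, the MERTK ligand, was also highest on these 4 arrays, at 14.37, 14.03, 14.42 and 14.05 against 13.63 to 13.89. The used probe of Olfml3 was lowest on them, at 10.32, 10.36, 10.41 and 10.70 against 10.90 to 11.52. All 8 choroid plexus genes were above background on at least 15 of the 30 arrays, and the part of choroid plexus in the 3 genes was not tested.

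Hippocampus and the rest of the brain were compared over all 6 groups. Of the 33 genes, 17 were higher in the hippocampus and 6 lower, where 25.1% of all genes were called higher and 26% lower, and the median was 0.22 beside 0.00 over all genes. Region almost coincides with slide: only the brain array of male 0 lay on a slide with hippocampal arrays. With the slide as a block 4 calls were left (Sparc, Mertk, Rgs10 and Golm1), where 18% of all genes were called, the median of the group turned to -0.22, and slide and region otherwise cannot be told apart. With 75th percentile scaling the median of the group was 0.27, beside 0.28 over all genes. There 18 genes of the group were called higher and 4 lower, but the share of all genes called was not counted.

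Surface receptors and transporters went mainly one way, with 9 of 12 called higher and 0 lower, where 25.1% of all genes were called higher and 26% lower. Itgam, the complement receptor chain CD11b, was higher by 0.70 ± 0.07 (adjusted p = 3.03e-08). Fcrls was higher by 0.68 ± 0.10 (adjusted p = 7.35e-06), Selplg by 0.56 ± 0.07 and Tmem119, a microglial surface protein, by 0.55 ± 0.08. Selplg encodes a selectin ligand. The lysosomal membrane protein gene Laptm5 was higher by 0.53 ± 0.08, Mertk by 0.46 ± 0.05, and Csf1r, Cx3cr1 and the lectin gene Siglech by 0.34 to 0.38. The used probes of Itgam, Siglech and Csf1r had mean signals of 15.83, 16.35 and 14.68. Their other probes averaged 4.73 to 10.29 and also read higher in the hippocampus, by 0.15 to 1.12. Which probe best reads each transcript was not tested. With the slide as a block, only Mertk of these receptors and transporters kept its call, and the values of Tmem119, Cx3cr1 and Siglech turned below 0.

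Secreted proteins moved in both directions. Sparc, a matricellular protein, was lower in the hippocampus in 15 of 15 mice, with differences of -1.24 to -0.63 and a change of -0.96 ± 0.04 (adjusted p = 8.71e-15). It was -0.24 (adjusted p = 0.0148) in the deposited scores, rescaled to log2 units, and -0.47 with 75th percentile scaling. A second probe of Sparc gave -1.09, while the dimmest gave 0.23, the opposite sign. Olfml3 (-0.68 ± 0.10) and Gas6 (-0.29 ± 0.06) were lower as well, while the protease inhibitor gene Cst3 was higher by 0.16 ± 0.04, by 0.59 with 75th percentile scaling and by 0.84 in the deposited scores rescaled in the same way. The second probe of Olfml3 gave 0.29, the opposite sign. Golm1, a Golgi membrane protein, had the largest difference of the group, 1.32 ± 0.05 (adjusted p = 3.59e-14), with 15 of 15 mice higher in the hippocampus, by 0.98 to 1.61.

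Among the intracellular genes Bin2, Ltc4s and Aif1, which encodes the marker IBA1, were higher by 0.54, 0.45 and 0.27, and Rgs10, a regulator of G protein signalling, was lower, at -0.43 ± 0.06 (adjusted p = 4.99e-06). P2ry6 and P2ry13 were higher by 0.42 and 0.23, and Entpd1 lower at -0.31. Fcer1g was higher by 0.36. Sall1, the transcription factor that holds microglial identity, was lower at -0.25 ± 0.08 (adjusted p = 0.0174). Adgrg1, Bin1, Fcgr3, Gpr34, Hpgds, Irf8, P2ry12, Ptprc, Slc2a5 and Spi1 made no call in this comparison.

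**Figure D4:**
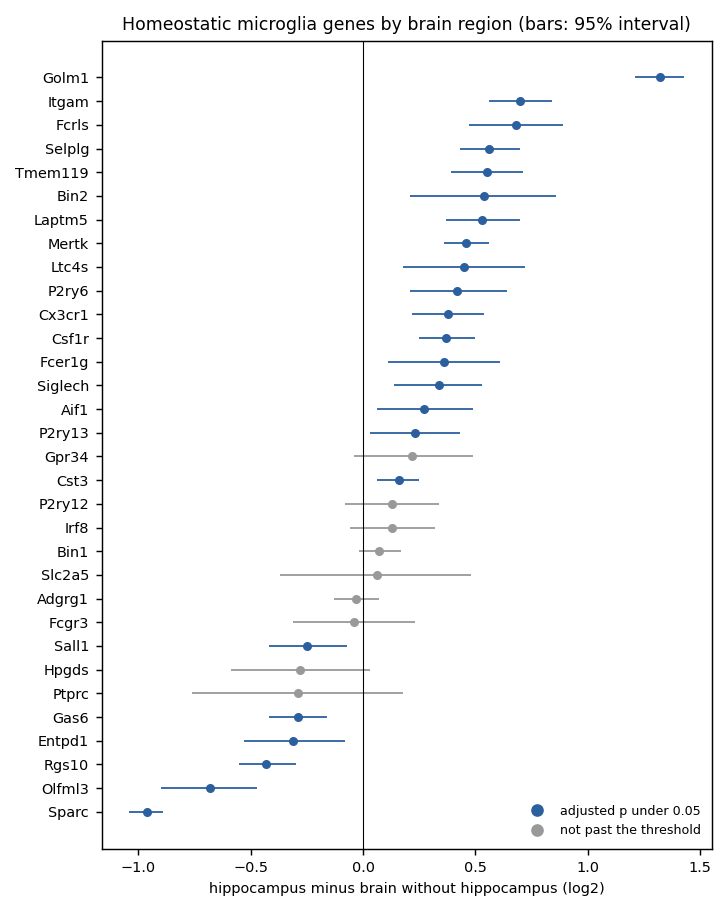
Difference between hippocampus and brain without hippocampus (x axis, log2, over 15 mice in each region) for the 32 readable genes (y axis, in order of the difference); bars are 95% intervals and blue points passed the threshold. Golm1 lies at 1.32 at one end and Sparc at -0.96 at the other.

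The change between 3xTgAD-BKO and 3xTgAD females was also compared between the 2 regions. No gene of the group differed past the threshold (0.123% of all genes did), with 0 higher and 1 lower, Entpd1, at an unadjusted p under 0.05 (9.9% of all genes), and the widest differences were -0.95 ± 0.41 for Entpd1, 0.80 ± 0.49 for Ltc4s and -0.71 ± 0.56 for Hpgds (adjusted p = 0.491, 0.605 and 0.705). Without 3xTgAD-BKO female 7, whose hippocampal array carried a choroid plexus list mean of 13.52, the Ltc4s and Hpgds differences were 0.04 and -0.07, and without female 6 they were 1.56 and -1.35.

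Several genes of the group held nearly level across the genotypes. In the brain Gas6 read 14.04 to 14.28, Rgs10 13.26 to 13.56 and Bin1, an endocytosis gene that neurons and oligodendrocytes also express, 14.90 to 15.12 over all 15 mice. Adgrg1, an adhesion receptor, read 12.45 to 12.82 there, and Cst3 17.12 to 17.49. Irf8, a transcription factor of the myeloid lineage, read 9.09 to 9.52 in 3xTgAD brains and 9.29 to 9.74 in 3xTgAD-BKO brains, which overlap.

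A second list of 29 other microglia genes and regulators was read the same way. In the brain 1 of 29 rose in 3xTgAD-BKO mice of both sexes, Trem2, the lipid receptor of the disease-associated state, by 0.52 ± 0.07 (adjusted p = 0.00333), with 11 higher and 1 lower at an unadjusted p under 0.05 and a list median of 0.17, where 14.5% of all genes passed unadjusted and 1.53% were called higher. In the hippocampus 0 of 29 passed, with 6 higher and 1 lower, where 10.5% of all genes passed unadjusted, and a median of 0.20. Of 13 measured genes of the disease-associated state, 0 passed in either region between 3xTgAD-BKO and 3xTgAD. In hippocampal females 0 were higher and 5 lower at an unadjusted p under 0.05 (16.4% of all genes), with a median of -0.10, and the list averaged 10.78 to 10.89 in 3xTgAD and 10.24 to 10.50 in 3xTgAD-BKO females, while in hippocampal males 3 were higher and 0 lower (18.2% of all genes) with a median of -0.09. Against WT, Cst7 and Mamdc2 rose in hippocampi of 3xTgAD females by 4 ± 0.62 and 3.03 ± 0.50 (adjusted p = 0.0179 and 0.0259), where no homeostatic gene passed and 0.746% of all genes did. In the brain Mamdc2 rose by 0.75 ± 0.09 (adjusted p = 0.0024), where 1.15% of all genes passed. Of the 29 other microglia genes, Nrros rose there by 1.26 ± 0.22 (adjusted p = 0.0224).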

How the data were processed

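The authors deposited one scanner file per array with the processed intensity of each spot, after background subtraction and spatial detrending by Agilent Feature Extraction 12.0.3.1 and without normalization between arrays. They also deposited a table of scores, which matched the Z score of the log10 intensity within each array (lowest correlation 1, largest median absolute difference 0.002543). Of 62976 spots, 3671 controls and the outlier spots were left out. The intensities were log2-transformed, quantile-normalized over 30 arrays and reduced to the probe with the highest mean, as the methods state. Names and coordinates came from RefSeq (GRCm38.p6), and the array annotation uses mm9. No probe was saturated. Precision is limited by the number of arrays.

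Each comparison was a contrast in limma 3.58.1 (R 4.3.3, statmod 1.5.0), fitted for each region to its 15 arrays (6 groups, each a genotype in 1 sex) or to all 30 arrays (12 groups), and Benjamini-Hochberg adjustment over 36717 genes at 0.05. Errors beside changes are standard errors. The fit was also run on simulated data, and the outcome is not given here. All genes of the group could be named. Tested changes are given for those past the threshold, otherwise for the 3 widest among the genes well above background, and for others where stated. The genes and lists were chosen with earlier results of these data known. Other lists covered border macrophages, monocytes, neutrophils, lymphocytes, neurons, astrocytes, oligodendrocytes, endothelium and choroid plexus. No array repeated another (highest r 0.9976). The alternatives were other scalings, background correction, probe rules, filters, slides, samples and tests. The comparisons of regions had a paired alternative with the mouse number as a block. Deviations of arrays that share a mouse number had a median correlation of 0.105 (-0.178 to 0.24, 8 of 15 above 0.1). That such arrays come from the same mouse rests on the labels. Not every allele and gene is reported here.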

Additional observations from a re-analysis of the deposited data

Results flagged for a closer look

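Among 128 groups of 5 mice of a genotype, both sexes together, 4 held 1 mouse far from the others, with a gap over 0.71 of the group's range. Chance gives about 1 such group in 20. Ltc4s in the hippocampus of 3xTgAD male 4 read 11.69, with the next mouse at 10.59 (ratio 0.839). Gas6 in the hippocampus of 3xTgAD-BKO female 7 read 14.37, with the next at 13.79 (ratio 0.794). Both arrays carried a choroid plexus list mean of 13.52. Cst3 in the hippocampus of 3xTgAD-BKO male 8 read 17.03, below the next at 17.43 (ratio 0.787). Csf1r in the brain of 3xTgAD female 2 read 14.61, above the next at 14.47 (ratio 0.789).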

How the results depend on the processing

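The number of genes of the group past the threshold moved with the slide, the mice left out and the test. With the slide as a block, the counts for 3xTgAD-BKO against 3xTgAD were 14 (males), 4 (both sexes) and 8 (difference between the sexes) in the hippocampus, and 1 (females), 6 (males) and 5 (both sexes) in the brain; against WT they were 1 in the hippocampus and 3 in the brain, and between the regions 4. Within 1 slide the males and both sexes gave 12 and 6 in the hippocampus and 6 and 6 in the brain. Without males 0 and 8 the counts were 2 and 2 in the hippocampus and 1 for both sexes in the brain. These 2 settings and the median pixel intensities were chosen after seeing the data. Leaving out 1 mouse gave 0 to 10 for hippocampal males, 0 to 3 for both sexes, 0 to 6 for the difference between the sexes, 0 to 6 for brain males, 1 to 4 for both sexes in the brain and 19 to 23 between the regions; the highest count of each genotype comparison came without male 9. The paired fit, with the replicate block, called 23 genes between the regions, the same number, and 0 for the female change between them. No paired analysis was possible for the genotype comparisons because the genotypes share no mouse number.

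The share of all genes passing was not counted for the fits without a mouse, the paired fit or the settings of this paragraph. Those counts cannot be set against it. Other settings moved hippocampal males to 1 (normalization within each region), 2 (normexp), 2 (filter on dim probes), 3 (threshold of 0.1), 7 (all 30 arrays in 1 fit) and 5 (the methods' t-test without adjustment). Both sexes in the hippocampus gave 1 with normexp, with the dim filter, at the threshold of 0.1 and with all 30 arrays, in each case Fcrls. The difference between the sexes there gave 1 with the dim filter and 2 at 0.1. Brain males gave 0 with the deposited scores, 0 with only the groups compared and 0 with the methods' t-test after Benjamini-Hochberg, 2 with normexp, with the dim filter and at 0.1, and 4 with the methods' t-test without adjustment. Both sexes in the brain gave 1 with 75th percentile scaling, with the deposited scores and with all 30 arrays, in each case Fcrls, and 0 with only the groups compared. Hippocampal 3xTgAD against WT gave 1, Slc2a5, with only the groups compared and with all 30 arrays. The methods' t-test without adjustment gave 3 and 6 for females 3xTgAD-BKO against 3xTgAD in hippocampus and brain, 4 and 3 for 3xTgAD against WT, and 7 and 3 for JHT against WT.

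Signs turned for Olfml3 in hippocampal females (0.24 with the mean of its probes, which disagree), Bin2 in hippocampal males (-0.01 without males 0 and 8) and Slc2a5 in brain 3xTgAD against WT (0.69 with the slide as a block). Between the regions the slide block turned Tmem119 to -0.23, Ltc4s to -0.12, Cx3cr1 to -0.22, Fcer1g to -0.55, Siglech to -0.17, Aif1 to -0.56, P2ry13 to -0.04 and Cst3 to -0.13; that fit rests on the 1 brain array that shares a slide with hippocampal arrays. Normalization within each region was not run between the regions, because values normalized separately share no scale. The causes of the other moves were not tested.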
